A study of Mus musculus with 2 samples.

Results

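The regions described here are the short introns of mouse liver poly-A RNA, taken as splice junctions whose intron is shorter than 100 bases and that were read at least once in each of 2 libraries. They were chosen by their length and by their reads, so that both are given as a description and neither is tested. By this rule 9735 junctions were members, out of 144669 junctions read in both libraries and 352887 rows of the junction file. The liver came, per the labels, from adult C57BL/6J littermates of both sexes aged 8 weeks, a common inbred strain. Both libraries are 1 group, with no treatment or second genotype. They have separate sample records but 1 donor identifier. The p-values ask only whether these 2 libraries differ by more than counting error, and such a difference may be technical. They were made strand-specifically from polyadenylated RNA above 200 nucleotides, with spike-ins added and ribosomal RNA removed, and read in pairs of 76 nucleotides.

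An intron is removed by the spliceosome, which recognises a 5′ splice site, a branch point and a 3′ splice site. These elements and the space the machinery needs set a lower bound on how short a vertebrate intron can be. Short introns are commonly recognised as a unit across the intron, whereas exons between long introns are recognised across the exon. When a short intron fails to be removed, the transcript retains it, and retained introns are in mammals often short. A read that crosses a splice junction is the direct evidence that an intron was removed, and an aligner can also report such a gap where an RNA differs from the genome for another reason.

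The junction file gives the reads of the libraries as R1 and R2, and which of the labelled replicates each one is was not settled. R1 held 24692822 junction reads and R2 25796894. In the gene tables the hepatocyte genes Alb, Apoe, Apoa1, Ttr and Trf, which encode abundant plasma proteins, lay between 6369 and 36293 TPM in both labelled replicates. Each junction also carries 2 flags, A and C, which the file does not explain, and a reproducibility score of the authors that is lower for better supported junctions. Positions are on mm9. No mm9 genome or annotation was used here, so the introns are named by position, strand and row name, and no intron sequence or gene name is given.

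Short introns were 6.73% of the junctions read in both libraries, and they took 8.03% of the R1 reads and 8.35% of the R2 reads of those junctions. A member had between 1 and 54205 reads in R1, with a median of 19, and between 1 and 56738 in R2, with a median of 22. Over all junctions in both libraries the medians were 13 and 14 reads, and over the 12459 introns of 100 bases or more but under 200 they were 19 and 22. Both libraries had at least 10 reads for 5512 members (56.6%), at least 100 reads for 2021 (20.8%) and at least 1000 reads for 309 (3.17%). The corresponding shares of all junctions were 51.3%, 14.9% and 2.23%. The medians of the members thus equalled those of the next length class.

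The flags split the members into classes that differed in length, in reads and in their place in the genome. Members with A and C both 1 numbered 7153 (73.5%) and held 98.2% of the members' reads in each library. Their medians were 39 reads in R1 and 46 in R2. Introns of 100 bases or more but under 200 with both flags 1 had lower medians, 31 and 36 reads. The 808 members with A = 0 and C = 1 had a median of 4 reads in each library, and the 1759 with both flags 0 had a median of 2 in each. Only 15 members had A = 1 and C = 0. Of all junctions in both libraries 7.93% had both flags 0, and of the short introns 18.1%. With at least 5 reads asked of each library, that share of the short introns was 5.21%, so that many members with both flags 0 rested on few reads. The authors' reproducibility score was below 0.05 for 90.1% of members with both flags 1 and for 28.0% of those with both flags 0. For the same flags these shares were 87.4% and 28.3% of introns of 100 bases or more but under 200. Over all junctions in both libraries they were 84.1% and 24.7%. The plot of reads per intron shows the classes side by side.

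**Figure D1:**
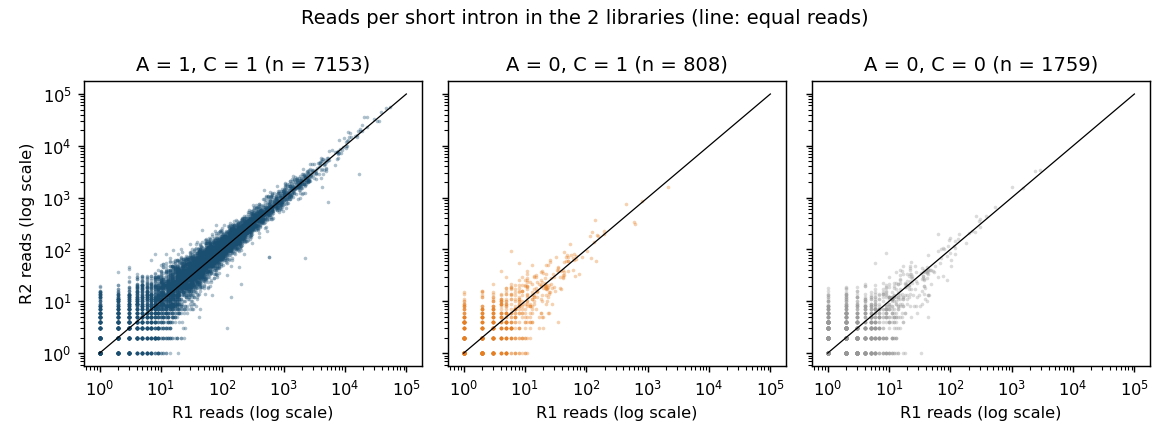
Reads of each short intron in R1 (horizontal, log scale) and R2 (vertical, log scale), 1 point per intron, for the 3 main combinations of flags A and C; the line marks equal reads. The 7153 introns with both flags 1 reach 54205 and 56738 reads, while the 1759 with both flags 0 have a median of 2 reads in each library.

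What flag A stands for could be examined from lengths alone, without moving a coordinate between builds. For each member and each neighbouring junction of its strand within 500 bases, the lengths of the intron, of the stretch between them and of the neighbouring intron were looked up among consecutive introns of the same chromosome and strand in GENCODE M21. Of the 6992 members with both flags 1 that had a neighbour, 6932 (99.1%) had these lengths in the annotation. Of the 713 members with A = 0 and C = 1 that had a neighbour, 110 (15.4%) matched, and of the 1429 with both flags 0 only 1 did. When every intron was taken as 1 base longer, 3 of the 6992 matched, and as 1 base shorter 5, so end minus start is the intron length without an offset. Members with A = 1 are called annotated below in this sense.

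The annotated short introns lay almost all in protein-coding sequence. Of the 6900 members with A = 1 whose chain of lengths pointed to 1 annotated intron, 6875 (99.6%) were in protein-coding genes and 6750 (97.8%) lay between the first and last coding base of a transcript. They came from 3112 genes. Of introns of 100 bases or more but under 200, with A = 1 and matched in the same way, 99.2% of 9397 were in protein-coding genes and 95.3% lay between coding bases. For 1482 of the 6900 short introns (21.5%) the annotation also holds an exon of the same gene that runs across the whole intron, the form of a retained intron, against 1632 of 9397 (17.4%) in the longer class. Those differences between classes were not tested.

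Members had lengths from 31 bases, the shortest in the file, up to the threshold, with quartiles at 77, 84 and 91 bases. The most common length was 84 bases, with 397 members. Few annotated introns with C = 1 were shorter than 70 bases. Of those 7153 members, 7046 (98.5%) were at least 70 bases long. Members with both flags 0 had a median of 61 bases, and 1092 of them were shorter than 70 bases against 107 of the first class. Each span of 10 bases from 40 to 99 held between 192 and 330 of them. Between 40 and 49 bases the file held 344 members, none of them with both flags 1 and 95.9% with both flags 0. From 80 to 89 bases it held 3766, of which 85.8% had both flags 1. Among the introns of GENCODE M21 itself, 13163 of 284220 (4.63%) are shorter than 100 bases, and of those of 31 bases or more 12288 are at least 70 bases long and 482 shorter.

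**Figure D2:**
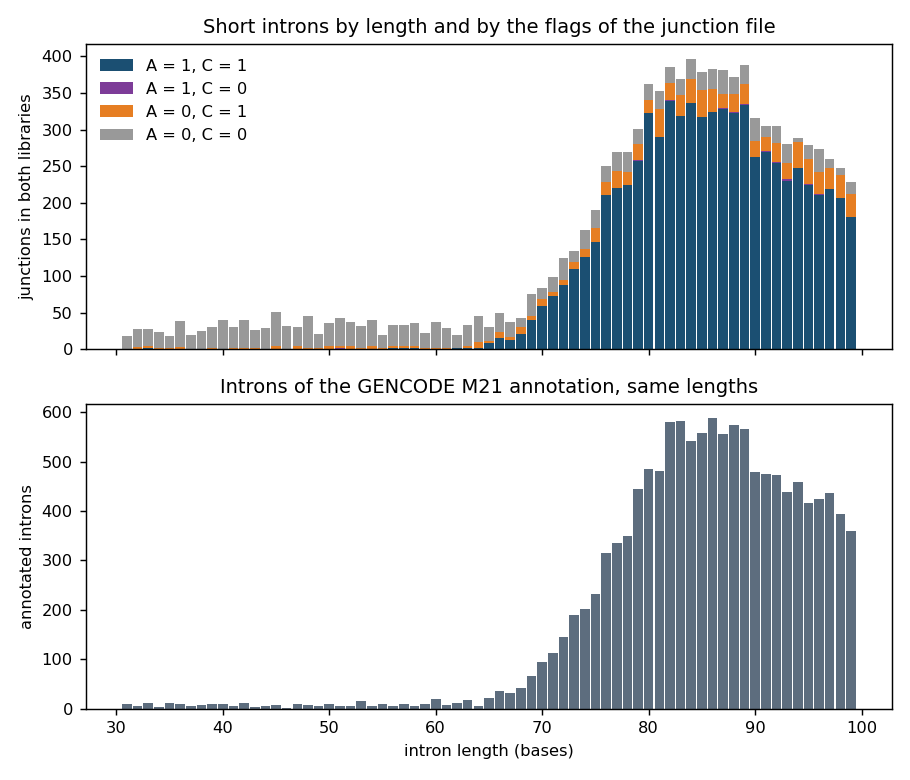
Number of short introns per intron length in bases, stacked by the flags of the junction file (top), and number of introns of each length in the GENCODE M21 annotation (bottom). Of 7153 introns with both flags 1, 7046 are at least 70 bases long, and those with both flags 0 (grey) extend down to 31 bases.

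At the threshold the count changed little. There were 229 junctions of 99 bases, with medians of 18 and 19 reads in R1 and R2, and 247 of 100 bases, with medians of 22 and 24. The best read intron of 99 bases was chr9:78326666-78326764 on the minus strand, with 17416 and 19657 reads in R1 and R2. The best read of 100 bases, just outside, was chr18:78018718-78018817 on the plus strand, with 13745 and 16055 reads. The next on the inside were chr17:34994514-34994612 on the minus strand, with 2641 and 2636 reads, and chr6:83006873-83006971 on the plus strand, with 2172 and 2636. The next on the outside were chr15:82620786-82620885 on the minus strand, with 5069 and 5118 reads, and chr1:90303792-90303891 on the plus strand, with 2489 and 4213.

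An intron whose length is a multiple of 3 keeps the reading frame when it is retained, provided it holds no stop codon. Among members with both flags 1, 32.9% of lengths were multiples of 3. Among members with both flags 0 the share was 40.3%, and 38.3% among the 823 of them that overlapped no other member. In introns of 100 bases or more but under 200 the shares were 30.8% and 35.3% for the same classes.

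A few loci supplied a large part of the reads. The 10 best read members held 16.4% of the members' reads in R1 and 17.2% in R2, and the 100 best read held 46.5% and 46.0%. All 10 had both flags 1, lay on the minus strand and were 80 to 89 bases long. The first was chr17:57363401-57363485 (SJ130685, 85 bases), with 54205 reads in R1 and 56738 in R2. A second on the same chromosome was chr17:57343810-57343889 (80 bases), with 29621 and 32752 reads. A pair lay at chr17:46862921-46863009 (89 bases; 38378 and 45389 reads) and chr17:46863132-46863217 (86 bases; 23260 and 22743 reads), so that 4 of the 10 were on chromosome 17. The intron chr19:38198923-38199008 (86 bases) had 36296 and 29622 reads and was the one with the largest excess in R1. On chromosome 9, chr9:107557499-107557586 (88 bases) had 22791 and 35628 reads and chr9:107558346-107558430 (85 bases) 19050 and 24819. The intron chr7:112748248-112748329 (82 bases) had 20472 and 35600 reads, the largest excess in R2 among the 10. Members no more than 5000 bases apart on a strand formed 4572 loci, and the 10 best read loci held 25.3% and 26.5% of the members' reads.

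The 2 remaining introns of the 10 best read formed a linked pair on the minus strand of chromosome 7. They were chr7:31707632-31707714, with 32641 and 30627 reads in R1 and R2, and chr7:31727601-31727683, with 46193 and 52978 reads. Both are 83 bases long. A junction of 20052 bases, chr7:31707632-31727683, joins the outer ends of both, so that it shares the 5′ site of the upstream intron and the 3′ site of the downstream one. It had A = 0, C = 1 and 12817 and 8940 reads. At the shared 5′ site the short intron took 78.2% of reads in R1 (exact binomial 95% interval 77.9 to 78.6%) and 85.5% in R2 (85.2 to 85.8%). At the shared 3′ site the other short intron took 71.8% in R1 (71.4 to 72.2%) and 77.4% in R2 (77.0 to 77.8%). These intervals, and those given below, hold counting error alone, because PCR copies of 1 molecule cannot be told apart. In the same stretch, chr7:31711774-31711854 (SJ55614, A = 0, C = 1) and chr7:31731689-31731769 (both flags 1) are both 81 bases long and had the same reads, 821 in R1 and 851 in R2. A second pair with equal reads was chr5:146334421-146334499 and chr5:146520542-146520620 on the minus strand, both 79 bases long, with 588 and 71 reads each. These 4 were the members with at least 500 reads, of 1109, that equalled another junction in length and in the reads of both libraries. Whether the same reads were counted at both positions was not tested. It was also not tested whether the reads of the 20052-base junction were placed correctly. The shares at its sites therefore describe reads as placed, and use of competing sites is not read from them.

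Annotated introns shorter than 70 bases could nevertheless be well read. The deepest was chr8:87417584-87417640 on the minus strand (SJ67220), of 57 bases, with 7516 reads in R1 and 7642 in R2. It was followed by chr11:5607559-5607626 on the minus strand, of 68 bases, with 7563 and 7017 reads, and by chr5:115688079-115688143 on the plus strand, of 65 bases, with 1232 and 1342 reads. Their log2 ratios of R2 over R1 were -0.04, -0.17 and 0.06. Only 2 members with both flags 1 were shorter than 50 bases. These were chr11:120624305-120624337 and chr8:73872801-73872833, both of 33 bases on the plus strand, with 4 and 3 reads in R1 and 5 and 1 reads in R2.

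The shortest members belonged to another class. There were 18 members of 31 bases, all with both flags 0, and 4 of them overlapped in a single stretch on the plus strand of chromosome 16. Only the 5 best read of the 18 are named here. The best read, chr16:11144165-11144195, had 89 reads in R1 and 26 in R2. The next, chr16:11144175-11144205, had 43 and 41 reads, and chr16:11144169-11144199 had 12 in each. Elsewhere lay chr10:60915333-60915363 on the minus strand, with 2 and 18 reads, and chr17:39983480-39983510 on the plus strand, with 14 reads in R1 and 1 in R2. The next shortest with 20 reads or more was chr11:60371177-60371208 on the plus strand (32 bases, A = 0, C = 1), with 146 and 59 reads.

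Many members with both flags 0 lay on top of one another. Of those 1759 members, 936 (53.2%) overlapped another member on their strand, against 436 of 7153 (6.10%) with both flags 1. At 17 places 8 or more members overlapped in a chain, 283 members in all, of which 268 had both flags 0. The most crowded was the stretch of 286 bases at chr16:11144028-11144313, where 78 members with 45 different starts and 47 different ends shared 3838 reads in R1 and 4432 in R2. In it 1 gap of 63 bases, chr16:11144155-11144217, took 63.5% of the reads in R1 and 72.4% in R2. On the minus strand of chromosome 9, 27 members lay within 187 bases at chr9:56071549-56071735, and the 33-base gap chr9:56071575-56071607 took 2947 of 3546 reads in R1 and 3456 of 4057 in R2. It was the best read member with both flags 0. The stretch chr7:20281950-20282399 held 26 members, chr2:26875130-26875336 held 18 and chr16:22961128-22961261 held 13. The last had 13 lengths of 45, 60, 75 or 90 bases, all multiples of 3, while in the other 16 places 25 to 72.7% of lengths were multiples of 3. The mitochondrial genome, whose genes have no introns, had 39 members, all with both flags 0, and 16 of them overlapped at positions 6451 to 6522 with 723 reads in R1 and 689 in R2. The crowded stretch chr1:24622892-24622960 on the minus strand held 12 members, whose lengths all occurred at this mitochondrial place. In both the best read gap was 61 bases long. Whether reads of 1 origin were placed at both was not tested. Without the 17 places the share of members with both flags 0 was 15.8%.

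Another form of overlap was seen around deeply read introns. It also occurred within some of the crowded stretches, so that some gaps are counted in both forms. At 114 annotated introns with C = 1, 179 members with both flags 0 had both ends within 10 bases of the ends of the intron. Those 114 introns had medians of 2360 reads in R1 and 2306 in R2. The neighbouring gaps had a median of 0.0444% of the reads of the intron they lay beside, and 162 of the 179 had at most 1%. None had the same length as the intron, and for 115 the lengths differed by 1 base. Around chr17:46862921-46863009, for example, 9 members of 89 to 93 bases overlapped, and the annotated intron held 99.9% of their reads in each library. These gaps numbered 10.2% of all members with both flags 0.

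**Figure D3:**
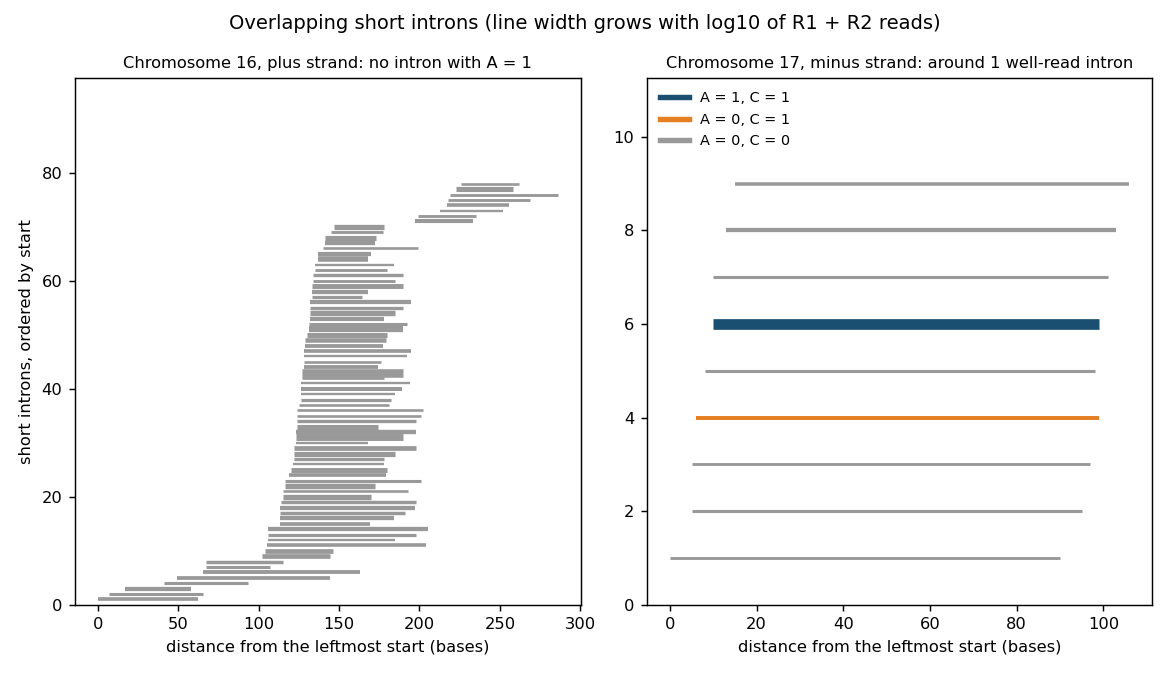
Overlapping short introns at 2 places, each a horizontal line from start to end in bases from the leftmost start, coloured by flags, with line width growing with log10 of the reads. On chromosome 16 (left) 78 introns with both flags 0 lie within 286 bases, and on chromosome 17 (right) 8 weakly read introns surround 1 that holds 99.9% of the reads.

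Competing splice sites were next examined, which the rule of membership does not use. A total of 2009 members (20.6%) shared a 5′ or a 3′ site with another junction read in both libraries, against 30.3% of all junctions and 26.2% of introns of 100 bases or more but under 200. Sharing was rare among members with both flags 1 (13.1%) and common among those with A = 0 and C = 1 (73.8%), so that most of the latter used a site that another junction also used. The same split was seen for introns of 100 bases or more but under 200 (16.6% and 79.4%) and for all junctions (19.4% and 86.1%). With at least 5 reads in each library asked of the other junction, 12.8% of members shared a site, and with reads in 1 library enough 37.2%. The 5′ site was shared by 12.8% of members and the 3′ site by 10.3%.

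The distances between competing sites had a distinct pattern for each kind of site. For each member with C = 1, the distance was taken to the best read other junction with C = 1 at the same site, and a competing pair that is short on both sides counts once for each member. The other junction needed only 1 read in each library. At chr17:57343810-57343889, with 29621 and 32752 reads in R1 and R2, the competing 3′ site 6 bases away had 1 read in each. Distances were not computed for longer introns. Of 958 members with a competing 3′ site, 539 had it within 30 bases, and the most frequent distance was 3 bases, with 110 members (11.5%), followed by 5 bases with 49 and 4 bases with 42. Of the 539, 264 (49.0%) were at a multiple of 3. Of 667 members with a competing 5′ site, 211 had it within 30 bases, and the most frequent distance was 4 bases, with 53 members, while 3 bases occurred 6 times. Only 51 of these 211 (24.2%) were at a multiple of 3. Tandem 3′ sites that are 3 bases apart are known to add or drop 1 codon, and a distance of 4 bases between 5′ sites shifts the reading frame.

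**Figure D4:**
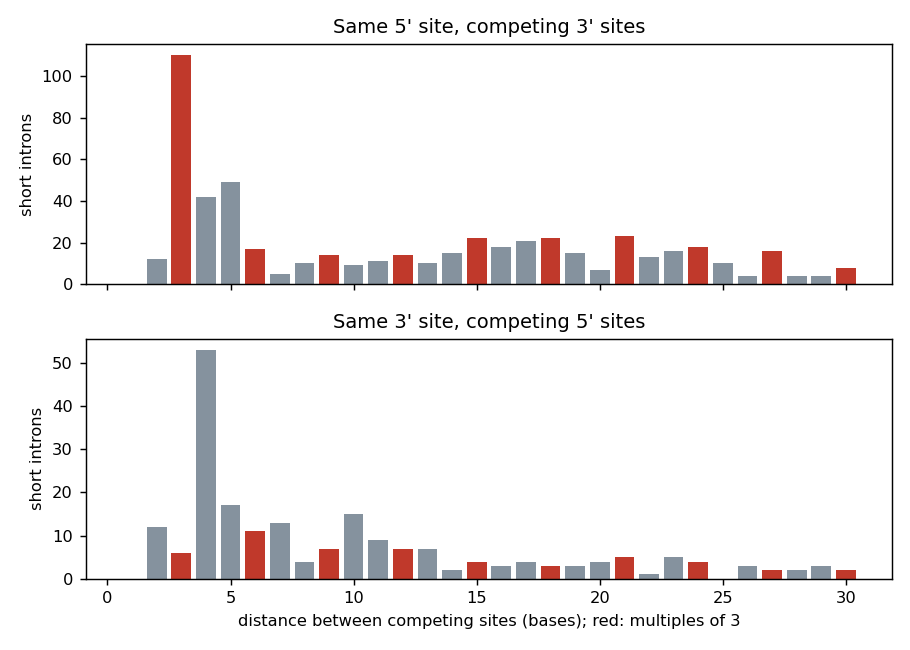
Number of short introns with C = 1 by the distance in bases to their best read competing site, for 3′ sites that share a 5′ site (top) and for 5′ sites that share a 3′ site (bottom); multiples of 3 are red. The highest bar is at 3 bases for 3′ sites (110 introns) and at 4 bases for 5′ sites (53 introns). A competing site needed only 1 read in each library.

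The share of reads that a member took at its site was then set side by side for the libraries. Members at sites with at least 20 reads in each library were taken, 840 with a shared 5′ site and 563 with a shared 3′ site. A site with competing short introns counts once for each of them, so these are numbers of members, not of separate sites. The share of reads that the member took differed between R1 and R2 by a median of 1.04 and 1.13 percentage points. It differed by at most 10 points for 92.9% and 89.2% of them. Many of these shares lay near 0 or 100%, where little difference is possible. Some members took 10 to 90% of the reads of both libraries together, 189 with a shared 5′ site and 146 with a shared 3′ site. Their median differences were 4.70 and 6.86 points, and 73.0% and 66.4% of them differed by at most 10 points. At the deeply read linked pair on chromosome 7, given above with the untested placement of its long junction, the intervals of the libraries did not overlap. Of the 840 and 563 members, 451 and 304 took at least 50% of the reads in both libraries, and 374 and 244 under 50% in both. There were 15 members of each kind on different sides of 50% in the 2 libraries.

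Several pairs of 3′ sites 3 bases apart were used side by side. On the minus strand of chromosome 10, chr10:80951104-80951172 (69 bases) had 246 reads in R1 and 272 in R2, and chr10:80951101-80951172 (72 bases) had 128 and 129. The shorter form thus took 65.8% of the site in R1 (95% interval 60.7 to 70.6%) and 67.8% in R2 (63.0 to 72.4%). On the plus strand of chromosome 17, chr17:35279785-35279870 (86 bases) had 177 and 182 reads and chr17:35279785-35279867 (83 bases) 138 and 161, which gave the longer form 55.7% (50.01 to 61.20%) and 52.4% (47.0 to 57.8%). At chr17:47509441-47509524 (84 bases) and chr17:47509441-47509521 (81 bases) the longer form took 50% in R1 (43.1 to 56.9%) and 56.6% in R2 (51.0 to 62.1%). In all 3 pairs both introns had both flags 1, and the intervals of the libraries overlapped. At other well read introns 1 form prevailed. At the 5′ sites of chr17:46862921-46863009 and chr19:38198923-38199008 the main form took at least 99.98% of reads in each library. At the 3′ site of chr17:57343810-57343889 the main form took 99.48% in R1 and 99.49% in R2, beside a junction of 910 bases.

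The 15 members of each kind on different sides of 50% lay at sites with medians of 156 reads (5′ site shared) and 102 reads (3′ site shared). These sums over both libraries ranged from 41 to 8870 and from 49 to 533. The shares of these members differed between the libraries by a median of 6.06 and 22.2 points. At chr19:46412911-46413009 on the minus strand (99 bases, A = 0, C = 1) the member took 65.5% of the 3′ site in R1 (95% interval 45.7 to 82.1%) and 25% in R2 (8.66 to 49.1%), on 19 and 5 reads. At chr16:13827079-13827152 on the plus strand (74 bases) it took 56.2% (37.7 to 73.6%) and 20% (11.4 to 31.3%), on 18 and 14 reads. Both were named for being on different sides of 50% with the widest gap, so the gap is a description.

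Contigs, the stretches of continuous signal that the authors called on the same build, showed whether RNA was also seen across an intron. At least 1 base of the intron lay inside a contig of the same strand for 9384 members (96.4%), and at least 50% of the intron for 76.2%. The whole intron lay inside contigs for 6436 members (66.1%), against 52.4% of introns of 100 bases or more but under 200 and 18.8% of all junctions. Among members with both flags 1 the share was 57.2%, with A = 0 and C = 1 it was 82.9%, and with both flags 0 it was 94.7%. It fell with length in annotated introns, from 87.1% of the 101 of 60 to 69 bases to 71.9% at 70 to 79, 55.7% at 80 to 89 and 48.2% at 90 to 99 bases. In the classes from there to under 200 bases it lay between 43.3 and 45.9%.

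Coverage of the intron also moved with read depth. Of annotated members with C = 1, whole coverage was seen for 23.8% of those with under 10 reads in both libraries together, for 42.2% with 10 to 99 reads, 75.5% with 100 to under 1000 reads and 93.2% with 1000 reads or more. The same 4 classes of introns of 100 bases or more but under 200 had 19.6, 32.3, 61.0 and 89.0%, lower in each class. How far retained introns, other transcripts and the joining of nearby signal each enter these shares was not tested. Members with both flags 0 had whole coverage of 95.4% at under 10 reads, and annotated introns with as few junction reads 23.8%. These classes were matched neither in length, with medians of 61 and 86 bases over all depths, nor in the RNA level around the gap.

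**Figure D5:**
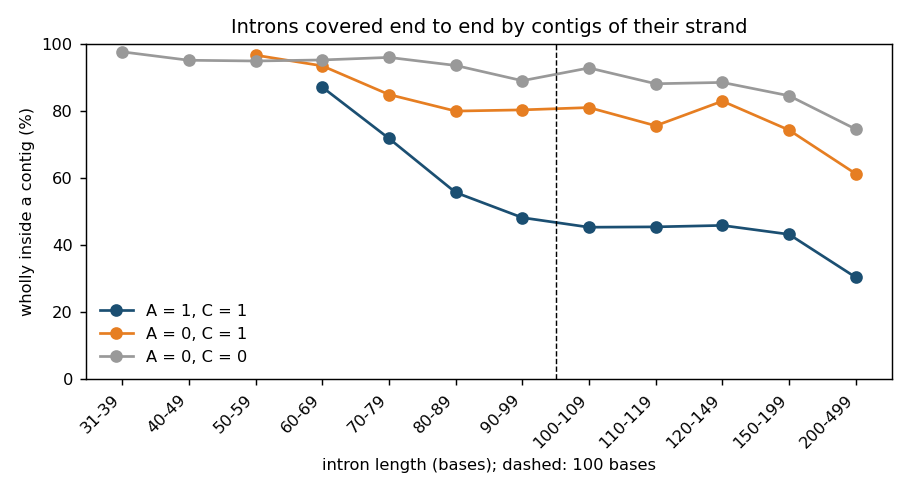
Percentage of introns that lie end to end inside contigs of their own strand, by intron length in bases and flags, for classes with at least 20 introns; the dashed line marks the threshold of 100 bases. Introns with both flags 1 (blue) go from 87.1% at 60 to 69 bases to 48.2% at 90 to 99 bases, and those with both flags 0 (grey) are at 89.1% or more below 100 bases.

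Short introns were often neighbours. For 1864 of 9733 members with a following junction (19.2%), the next junction of the strand was also a short intron, against 14.3% for introns of 100 bases or more but under 200 and 7.20% over all junctions. Junctions of all flags were counted, also those in crowded stretches, and the share among annotated introns alone was not computed. The median stretch between neighbouring members was 118 bases. There were 362 runs of 3 or more members. The longest run had 12 members, all with both flags 1, at chr15:76283809-76286301 on the minus strand. Its introns were 71 to 93 bases long and its intervening stretches 70 to 289 bases, and they had 85 to 387 reads in R1 and 69 to 515 in R2. Runs of 11 lay at chr14:31952390-31954718, with 48 to 184 and 81 to 256 reads, and at chr15:76426363-76428405, with 61 to 232 and 95 to 353 reads.

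The chromosomes differed in their share of short introns. Among annotated junctions with C = 1, the share was 10.3% on chromosome 17, 10.02% on chromosome 15, 9.67% on chromosome 7 and 9.22% on chromosome 8. It was 3.04% on chromosome 1, 3.32% on chromosome 13, 3.33% on chromosome 6 and 3.33% on chromosome 12. The X chromosome had 173 of these introns (6.11%). Chromosome 16 had 147 annotated members with C = 1 and 139 with both flags 0, 78 of the latter in its most crowded stretch. The members lay on the minus strand in 5031 cases and on the plus strand in 4704.

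The libraries were then compared for each junction, which asks only how far these 2 libraries differ. A summed count of 20 reads or more was asked, which 6037 of the 9735 members had. Given its sum, the split of each junction was tested by the exact binomial test, two-sided, with p-values adjusted by Benjamini and Hochberg over all junctions tested. Of the members, 1826 (30.2%) differed by more than counting error, where 27.8% of all 83247 junctions tested did, and 27.6% of the 83075 read in both libraries. R2 was higher for 1181 of them and R1 for 645. Over all junctions tested 14.1% were called higher in R2 and 13.6% higher in R1, and over those read in both libraries 14.0% and 13.6%. Since the rule asked for reads in both libraries, nothing is read from these counts. Without scaling to equal totals, 72.6% of the members' calls were higher in R2 in place of 64.7%. Most of the 6037 members tested were close, with 86.9% within 2-fold and a median absolute log2 ratio of 0.38, on the scale of reads with 0.5 added.

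The ratio of the libraries followed intron length. The median log2 ratio of R2 over R1 was 0.12 for short introns, 0.08 from 100 to under 200 bases, 0.03 from there to under 1000, -0.05 from there to under 10000 and -0.08 at 10000 bases or more, against 0.00 over all junctions tested. In annotated junctions with C = 1 the same medians were 0.12, 0.08, 0.02, -0.05 and -0.11. These medians are small beside the spread of single members, which ran from -5.18 to 3.84. The order across lengths was not tested, and neither was the part that the genes holding short introns play in it.

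Most members with the largest ratios were thinly read. The annotated intron chr19:37773562-37773640 on the plus strand (SJ139046, 79 bases) had 2189 reads in R1 and 70 in R2, a log2 ratio of -5.02. The most extreme ratio was that of chr1:133568923-133569021 on the plus strand (99 bases), with 121 and 3 reads (-5.18, adjusted p = 1.78e-31 by the exact binomial test). A gap of 60 bases with both flags 0, chr17:39984747-39984806, had 33 and 1 reads (-4.54). It lies in a crowded stretch on chromosome 17 whose 8 members had 140 reads in R1 and 55 in R2. At chr5:31256365-31256463 there were 138 and 12 reads (-3.53), and at chr11:119926024-119926098 19 and 1 (-3.76). In the other direction chr9:108391706-108391783 on the plus strand (78 bases) had 2 reads in R1 and 37 in R2 (3.84), chr8:124360419-124360499 (81 bases, A = 0, C = 1) 6 and 93 (3.78), and chr15:99146812-99146891 1 and 20 (3.71). The introns chr2:93678310-93678396 and chr11:115869180-115869274 had 3 and 1 reads in R1 and 45 and 19 in R2, both at 3.64. All 10 passed the test at an adjusted p of 0.05, which compares 2 libraries and no condition.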

How the data were processed

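Splice junctions and contigs were deposited for the series as a whole and lie on mm9, per the accompanying notes. The deposited junction counts give raw reads of 2 libraries, R1 and R2. The aligner and filters behind them are not named in the labels or headers. The reproducibility score and the contig signal were deposited by the authors, and their calculation is not given either. The deposited estimated counts and TPM of the gene tables, on mm10 with GENCODE M4, served only for depth (60770411 and 61688916 estimated reads) and the tissue check. The transcript tables, FPKM values and display scores were not used.

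Length was end minus start. Rows with a length under 100 bases and at least 1 read in each library were members. Members, lists and classes were chosen with earlier results of these data known. Shared sites, overlaps and neighbours were computed per strand in Python 3.11.15 (pandas 2.3.3, scipy 1.17.1), and contig coverage with bedtools 2.31.1. The libraries were scaled by total junction reads, or by TMM in edgeR 4.0.16 as an alternative. Chains of lengths were compared with GENCODE M21 on GRCm38 by length alone. Each exact binomial test used junctions with 20 reads or more and an adjusted p of 0.05. Intervals are exact (Clopper-Pearson) at 95%. The test was first run on simulated libraries in which counting error was the only noise. It recovered 22.9%, 49.5% and 92.5% of junctions changed 1.5-, 2- and 4-fold. That run cannot show how the test behaves when libraries vary in other ways. Introns were named by position by a written rule: the 10 best read, the 5 shortest (ties by more reads), those at the threshold, the 5 most different between the libraries in each direction, and the 5 best read with a shared site. Introns under 70 bases, tandem 3′ sites, sites whose main form differed, crowded stretches, runs and pairs of equal reads were named, and the range of 10 to 90% for shares was set, after their values were seen.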

Additional observations from a re-analysis of the deposited data

How the results depend on the processing

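The 14 summary values of the members (number, share, length, reads, library calls and ratio, shared sites, contigs, neighbours, strand and flags) were recomputed under other settings. Of 63 recomputed values, 32 stayed within the limit set for them. The limit was the spread between libraries, the exact interval, 1.5 times the count or, for the median log2 ratio, the standard deviation over members. That deviation was 0.71 beside a median of 0.12, so it was a wide limit, and the ratio was 0.18 without scaling. Only the median log2 ratio could change sign, and it stayed positive under its other settings. The remaining values are counts, shares, lengths and reads, which have no sign to change. The distances between competing sites, their shares, crowded stretches, loci, chromosomes and matches to GENCODE were not recomputed. The number of short introns was 5512 with at least 10 reads in each library and 3185 under a threshold of 80 bases. With reads needed in only 1 library it was 18491 to 22055. Their share of junctions was 7.02% and 7.43% with at least 5 and 10 reads in each library, 6.37% among junctions with flag A not 0, and 2.20%, 4.80% and 8.21% under thresholds of 80, 90 and 110 bases. With reads needed in only 1 library the share was 7.73 to 8.54%, the median length 78 to 80 bases, and the share of lengths that are multiples of 3 was 36.55 to 36.57%. That last share was 34.5% over all members, 33.4% and 32.7% with at least 5 and 10 reads, and 32.9% with flag A not 0, where the median length was 86 bases. Under a threshold of 80 bases the median reads were 8 in R1 and 9 in R2. The share of calls higher in R2 was 72.6% without scaling. The share of members with a shared site was 12.8% with at least 5 reads in each library asked of the other junction, 37.2% with reads in 1 library, and 13.1% over members with flag A not 0. Coverage by contigs was 76.2% for at least 50% of the intron and 66.1% for the whole intron. The minus strand held 52.8% of members with flag A not 0. Members with both flags 0 were 15.8% without crowded stretches and 5.21% with at least 5 reads in each library. The settings without crowded stretches, the 5-read setting for flags and, for shared sites, library calls, strand and contigs, the restriction to flag A not 0 were chosen after seeing the data. Depth limits the members with few reads most, since 3698 of the 9735 had under 20 reads and could not be tested between libraries.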

Other observations

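Short gaps read in only 1 library were more numerous than the members. The junction file held 30811 rows shorter than 100 bases, and 21076 of them had reads in 1 library only. Of these, 12081 (57.3%) had a single read. Both flags were 0 for 83.1% of them, A = 0 and C = 1 for 11.9%, and both flags were 1 for 4.90%. Rows under 100 bases were read in both libraries in 87.4% of cases with both flags 1, 24.3% with A = 0 and C = 1, and 9.12% with both flags 0. The rows with both flags 0 that were read in 1 library only had a median length of 60 bases, and 38.9% of their lengths were multiples of 3, beside 40.3% for the members of that class. The highest of them had 1131 reads in 1 library and none in the other.

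The best read members with A = 0 and C = 1 were 81 to 99 bases long. The first, chr14:41918550-41918635 on the plus strand (SJ110094, 86 bases), had 2158 reads in R1 and 1596 in R2, and the second was SJ55614 on chromosome 7, described above. The intron chr15:82470697-82470777 on the minus strand (81 bases) had 441 and 762 reads, chr19:3986952-3987050 on the plus strand (99 bases) 608 and 339, and chr10:127705952-127706050 on the plus strand (99 bases) 624 and 309. Among members with both flags 0 that were longer than 70 bases, chr5:138024213-138024299 on the plus strand (87 bases) had 1535 and 1533 reads and chr9:107983827-107983912 on the plus strand (86 bases) 1006 and 1624. Of the 15 members with A = 1 and C = 0, the best read was chr17:25976837-25976929 on the minus strand (93 bases), with 554 and 705 reads, followed by chr11:69826586-69826673 on the minus strand (88 bases), with 361 and 331.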
